A study of Mus musculus with 40 samples.

Results

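Mice fed a high-fat diet with 5 µg of the formulation Kal-1 are compared here with mice fed that diet alone, in subcutaneous stromal vascular cells. The arrays were chosen from the sample labels: every array of the 5 µg group, and the array of the high-fat group from the same week, at weeks 3, 6, 9, 12, 15 and 18. This gives 12 of the 40 arrays of the series, 6 per diet, in 6 pairs. All animals were C57BL/6J mice, divided into diet groups when weaned at 3 to 4 weeks of age. HFC stands for the diet rich in fat and sucrose, with 60% of its calories from fat and without Kal-1. HF5 stands for the same diet with 5 µg of Kal-1, which the labels describe as an aqueous botanical formulation without giving its composition. Each group had 30 animals per the labels, of which 5 were killed every 3 weeks. The labels give neither the sex of the mice nor how many of them went into an array. Each diet and week has 1 array, although the series speaks of 3 biological replicates, so the pair of arrays from the same week is the unit here. Whether the arrays of a diet come from separate animals is not stated, and the p-values across weeks measure the spread between these 6 pairs, those for weeks 12 to 18 the spread between 3.

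Stromal vascular cells are what remains of fat tissue when the lipid-filled adipocytes are removed. They include macrophages, lymphocytes, fibroblast-like progenitors of adipocytes, endothelial cells and the pericytes around small vessels. Macrophages gather in fat as it expands: resident ones carry scavenging and lectin receptors such as Mrc1 and Mgl2, those that take up lipid carry Trem2 and Cd9, and those that present antigen to T cells do so on MHC class II molecules.

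A level is the log2 intensity of a probe relative to the 75th percentile of its array, so that 0 is the 75th percentile, and a difference is HF5 minus HFC on this log2 scale. Where several probes target a gene, the brightest on average stands for it, and the level of a list is the mean over its genes. The intensity at the 75th percentile ran from 282 over a median of 794 to 1623 on the HFC arrays, and from 456 over 703 to 1448 on the HF5 arrays. The share of probes well above background ran from 60.5% over 70.5% to 72.7% for HFC, and from 58.5% over 69.9% to 72.4% for HF5. The ranges overlap, and by the 75th percentile the dimmest arrays were those of week 18 for both diets. The HF5 array with the lowest share well above background was that of week 3 (58.5%). The arrays of a pair were scanned on the same day in 6 of 6 pairs, but shared a slide only in weeks 12, 15 and 18.

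The series names infiltrating macrophages, and the tissue label names stromal vascular cells. All 12 macrophage markers on the array were well above background on all 12 arrays. Among them Lyz2, which encodes lysozyme, had a saturated spot on 8 of 12 arrays, so that its differences cannot be read. Markers of other cells were present too: all 12 adipocyte markers and all 12 stromal progenitor markers were well above background on all 12 arrays. The 12 adipocyte markers had a mean level of 0.47 to 4.91 on the HFC arrays, with a median of 2.12, and of 0.69 to 5.09 on the HF5 arrays, with a median of 1.54. The arrays therefore measure a mixture, in which fewer cells of a type and less RNA per cell cannot be told apart. Ddx3y, a gene of the Y chromosome, was well above background on all 12 arrays, and Xist, the RNA that silences an X chromosome in females, on 0 of 12.

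Both arrays of week 9 and the HF5 array of week 3 stand apart from the others. In week 9 the adipocyte markers were at 4.91 in HFC and 5.09 in HF5, against 2.52 at most on the other arrays. The 12 genes of inflammatory cytokines were at −3.32 in HFC and −4.39 in HF5 that week, against 0.37 at least elsewhere. On the HF5 array of week 3 the 12 endothelial markers were at −1.62, against a range of 2.31 to 3.68 on the other HF5 arrays. The 10 markers of pericytes and smooth muscle were at −1.84 there, against 2.65 to 4.06. Whether these arrays carry the right labels cannot be told from the files, and this limits every difference that includes weeks 3 or 9. Other arrays stood apart for the 7 mesothelial genes. These were at 0.79 in HFC and −0.22 in HF5 in week 6, and at −0.27 in HF5 in week 18. On the remaining arrays they were at −3.53 at most. Weeks 6 and 18 were left out only singly. At first mention below, a list median comes with its value without both weeks, or with its lowest and highest value when each week in turn is left out.

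Across the 6 pairs no gene differed between the diets past the threshold. Of the 433 list genes measured, 8 were lower in HF5 in 6 of 6 pairs (Adgre1, Csf1r, Mgl2, Cd209d, H2-Eb1, Cd248, Alas2 and Bub1). By the values 7 were higher: Chil3, Fkbp5, Gclc, Txnrd1 and, with some pairs that carry no direction, Srebf1, Epcam and Cxcr2. These shares lie near those of all 17851 genes, of which 1.58% were lower and 1.84% higher in 6 of 6. Among genes well above background on all 12 arrays, Col2a1 and 1700071K01Rik had the widest smallest gaps, both lower. As groups, 32 of the 42 lists had medians below 0 and 10 above, or 25 and 17 without weeks 3 and 9. limma, with the week as a block, called 0 of 29068 probes (0%) at a Benjamini-Hochberg adjusted p under 0.05, and its lowest adjusted p was 0.976. At an unadjusted p under 0.05 there were 1351 probes, 627 higher and 724 lower in HF5. The methods' t-test called 0 probes, and gave 380 at an unadjusted p under 0.05. A normexp background correction moved the median difference of all probes from 0.01 to −0.30, left the count of calls at 0 and put 8269 probes under the unadjusted threshold, of which 282 were higher.

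The size of the difference varied with the week. In week 3, 34.6% of the 29068 probes differed at least 2-fold between the arrays of the pair. The share was 17.1% in week 6, 6.06% in week 9, 12.9% in week 12 and 13.9% in week 15. In week 18, 8.25% were at least 2-fold higher and 9.78% at least 2-fold lower. By these values the pair of week 9 was the most alike, and the pair of week 3, whose HF5 array stands apart, the least. In week 3 the lowest measurable level, to which dim probes were raised, was 1.17 higher on the HF5 array. Probes at that level on both arrays therefore count as at least 2-fold higher. With normexp week 3 was also highest (55.2%), but week 9 came next with 40.5% and week 15 was lowest with 7.54%. With 1 array per diet, these shares have no replicate error.

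**Figure D1:**
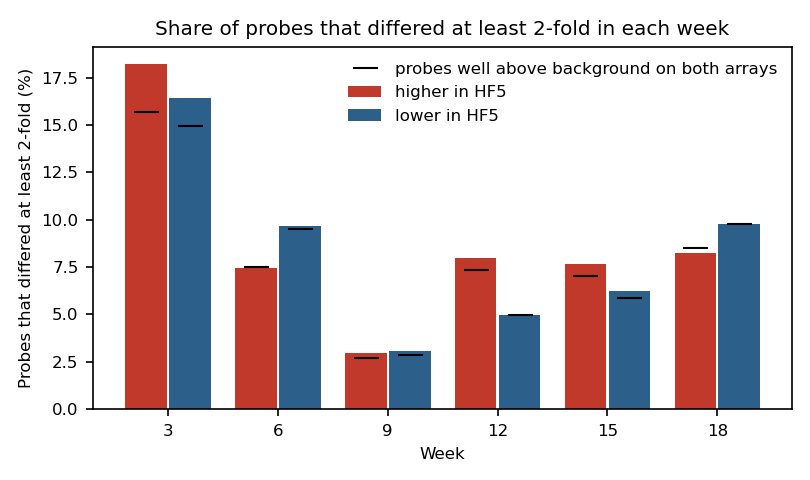
Share of the 29068 probes tested that were at least 2-fold higher (red) or lower (blue) in HF5 than in HFC, in percent, for the pair of arrays of each week. Black marks give the same share among probes well above background on both arrays. Week 3 is highest with 18.2% higher and 16.4% lower, and week 9 lowest with 2.98% and 3.08%, though not with normexp. In week 3, probes at the lowest measurable level on both arrays count as higher.

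Of 17851 genes, 328 were higher in HF5 in all 6 pairs (1.84%) and 282 were lower in all 6 (1.58%). Signs set at random in 6 pairs give a share of about that size in each direction. Among the 13510 genes well above background on all 12 arrays, 241 were higher in all 6 (1.78%) and 224 lower (1.66%). With normexp, 360 genes were higher and 1305 lower in all 6, beside a median of −0.19 over all genes. Over all genes the median was 0.01, with 9096 genes higher and 8755 lower. With members saturated on no array, 3 of the 42 list medians changed sign, those of insulin signalling (0.06), antioxidant (−0.10) and ribosomal protein genes (−0.06). In 0 of the 42 lists did the weekly median have the same sign in all 6 weeks.

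**Figure D2:**
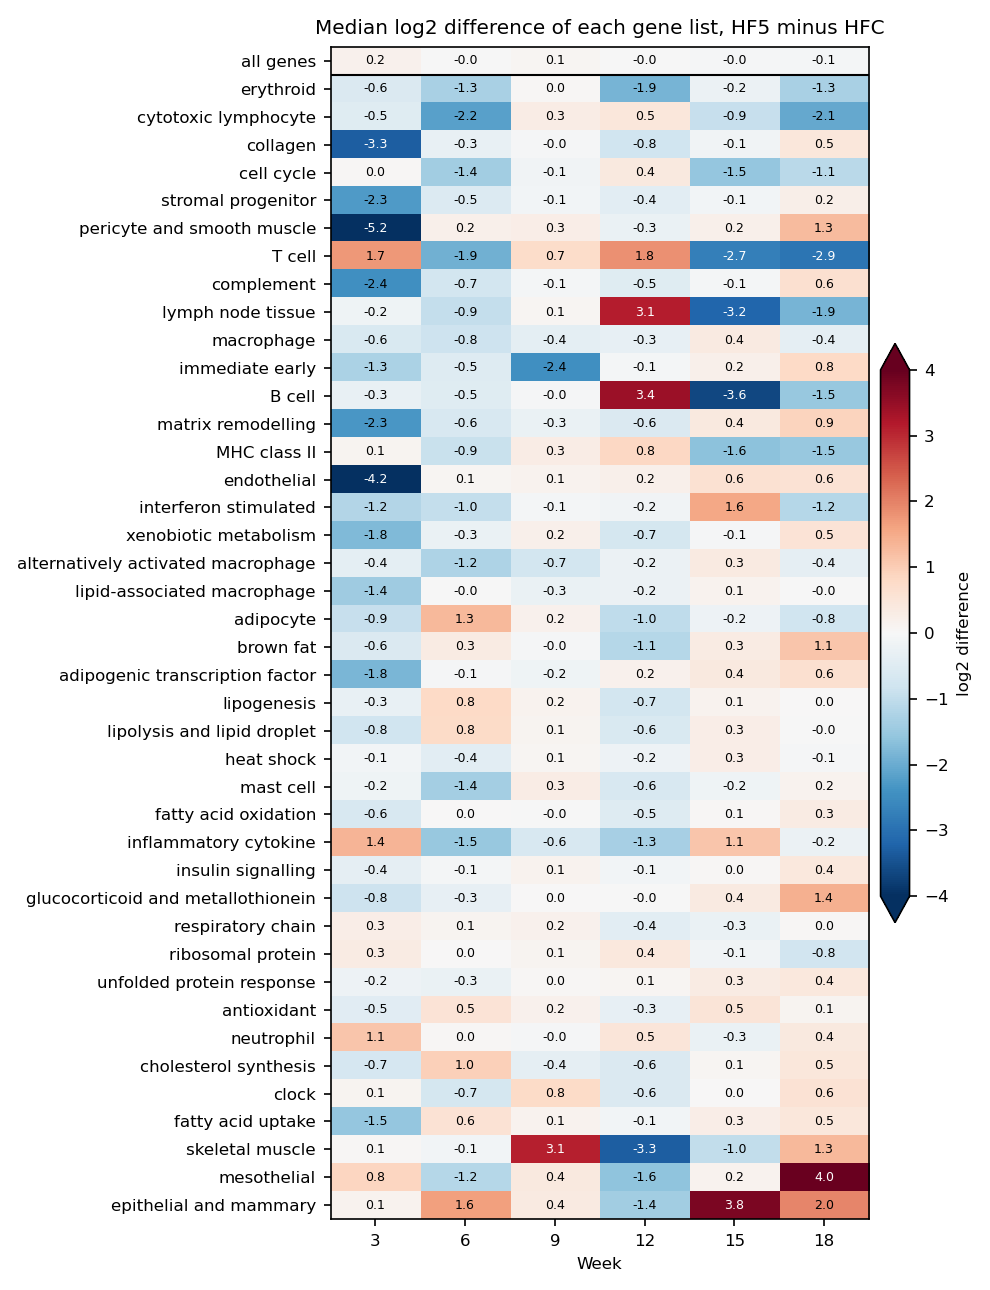
Median log2 difference, HF5 minus HFC, over the measured genes of each list (rows) in each week (columns), ordered by the median over the genes' mean differences, with all genes tested at the top. Red is higher in HF5 and blue lower; the endothelial and pericyte lists are lowest in week 3, at −4.16 and −5.20, while T cell and B cell lists are above 0 in week 12 and below 0 in weeks 15 and 18.

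Macrophage genes were lower in HF5 in most weeks. Of the 11 measured apart from Lyz2, 9 had a mean difference below 0 and 2 above, with a median of −0.45, or −0.43 with Lyz2. The weekly median was below 0 in 5 of 6 weeks and 0.36 in week 15, and without weeks 3 and 9 the list median was −0.24. With normexp it was −0.28, beside −0.19 for all genes. Adgre1, which encodes the macrophage surface receptor F4/80, ran from 1.23 over a median of 2.16 to 2.87 on the HFC arrays and from 0.59 over 1.72 to 2.38 on the HF5 arrays. The HF5 array was the lower in every week, although the ranges of the diets overlap. Its mean difference was −0.45 ± 0.16, or −0.23 with normexp, and the pairs ran from −0.64 to −0.27. Here and below, ± is limma's moderated SE, which draws on the spread of all probes (n = 6 pairs). Csf1r, the receptor for the growth factor that keeps macrophages alive, ran from 0.81 over 1.35 to 3.66 in HFC and from 0.03 over 0.94 to 2.69 in HF5. It too was lower in HF5 in every week, by a mean difference of −0.60 ± 0.18, while 2 other probes for Csf1r gave −0.41, lower in 6 of 6 pairs, and −0.08. A second probe for Adgre1 gave −0.39 and was lower in 5 of 6 pairs. Both diets had their highest Csf1r array in week 6.

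The other macrophage markers did not keep their sign in every week. The complement C1q subunits C1qa, C1qb and C1qc, which macrophages secrete, had mean differences of −0.48, −0.47 and −0.56, and all 3 were above 0 in week 15. Mrc1, a mannose receptor of resident macrophages, differed by −0.59 ± 0.25 and was lower in 5 of 6 pairs. Cd68, a lysosomal protein, differed by −0.41 and was also lower in 5 of 6. Cd14, part of the receptor for bacterial lipopolysaccharide, was the member with the highest mean difference, 0.60 ± 0.48. Its difference ran from −1.17 in week 6 to 2.74 in week 3. Itgam, an integrin chain of myeloid cells, differed by 0.04.

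Genes linked to alternatively activated macrophages split. Of 11 measured, 9 were lower on average and 2 higher, with a median of −0.31 (−0.38 without weeks 3 and 9). Leaving out week 6 took the median to −0.14, week 3 to −0.47 and week 15 to −0.55. Mgl2, a lectin that binds galactose-type sugars, ran from 0.90 over 1.19 to 2.26 in HFC and from −0.79 over 0.72 to 1.35 in HF5. Its mean difference was −0.82 ± 0.26, with the widest gaps in weeks 3 and 6. Cd209d, a lectin of the DC-SIGN family, ran from −0.08 over 1.03 to 1.52 in HFC and from −0.72 over 0.11 to 1.14 in HF5, with a mean difference of −0.71 ± 0.24. Both lectins were lower in HF5 in 6 of 6 pairs, with overlapping ranges. Chil3, a secreted chitinase-like protein of activated macrophages and neutrophils, went the other way. It ran from −2.01 over 1.09 to 3.18 in HFC and from −1.14 over 2.55 to 3.99 in HF5. Its mean difference was 0.97 ± 0.25, higher in 6 of 6 pairs, with 2.03 in week 3 and 0.25 in week 6. The level of Chil3 moved with the week in both diets, lowest in week 9 and highest in week 15, and the ranges overlap. Of the rest, Folr2 (−0.68), Cd163 (−0.53) and Lyve1 (−0.40), all carried by resident macrophages, were lower in 5, 5 and 4 of 6 pairs.

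**Figure D3:**
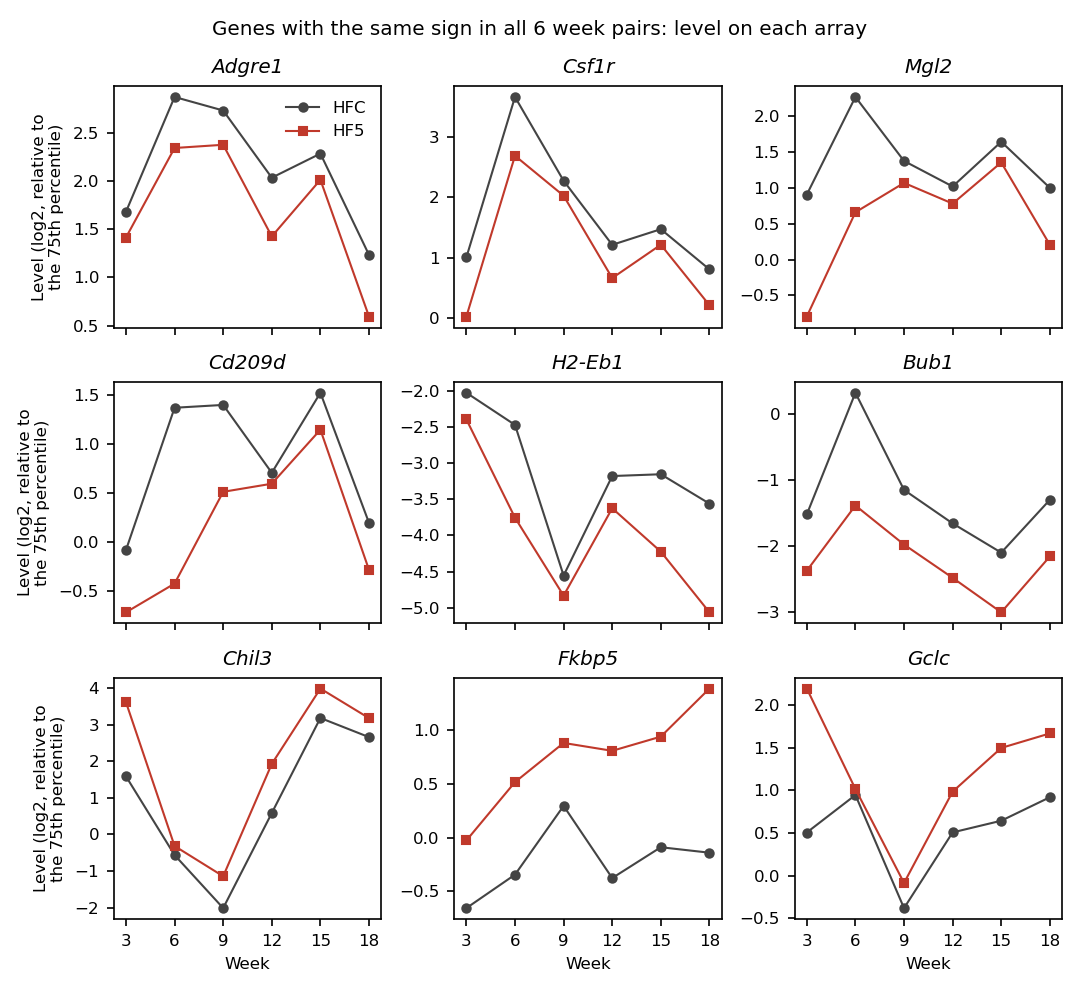
Level (log2 intensity relative to the array's 75th percentile) of 9 genes on each of the 12 arrays, by week, with HFC as grey circles and HF5 as red squares; lines join arrays of a diet and are not repeated measures. Adgre1, Csf1r, Mgl2, Cd209d, H2-Eb1 and Bub1 are lower and Chil3, Fkbp5 and Gclc higher in HF5 in each of the 6 weeks.

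The genes of lipid-associated macrophages had a median of −0.29 over 11 measured, 3 higher and 8 lower, which became −0.10 without weeks 3 and 9 and also without week 3 alone. Trem2, the lipid-sensing receptor that defines these cells, had levels of 0.05 over 1.37 to 2.60 in HFC and 0.27 over 1.24 to 2.68 in HF5. The ranges of Trem2 are nearly the same, and its mean difference was 0.00 ± 0.19. Itgax, the integrin CD11c of dendritic cells and inflammatory macrophages, differed by −0.73 ± 0.31 and was lower in 5 of 6 pairs, all but week 12. Ctsk, a protease that degrades collagen, had the lowest mean of the list, −0.82 ± 0.53, with −3.60 in week 3.

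Inflammatory cytokine genes had no common direction. Of 11 measured, 5 were higher and 6 lower, with a median of −0.04. Weeks 3 and 15 had medians above 0, with 1.37 in week 3, while week 6 had −1.52 and week 12 −1.34. Leaving out a week gave list medians from −0.50 (without week 3) to 0.25 (without week 12), with 0.19 without week 6, −0.25 without week 15 and −0.20 without week 18. Without weeks 3 and 9 it was −0.32, and with normexp −0.28. Il1b, which encodes interleukin-1β, ran from −1.88 over 2.49 to 3.84 in HFC and from −4.67 over 2.52 to 5.90 in HF5. Its highest level was that of the HF5 array of week 3, and the levels of week 9 were the lowest of both diets. Ccl2, a chemokine that draws monocytes into tissue, had the lowest mean of the list, −0.90 ± 0.56, and was lower in 5 of 6 pairs. Il6, a cytokine, had the highest mean, 0.26 ± 0.46. Interferon-stimulated genes had a median of −0.32, 2 of 12 higher and 10 lower, with the weekly median above 0 only in week 15, at 1.55. Without that week the median was −0.59, without week 3 −0.19, without week 18 −0.12 and without weeks 3 and 9 −0.18. The complement genes had a median of −0.50, 1 of 12 higher and 11 lower (1 and 8 among those saturated on no array), which became −0.13 without weeks 3 and 9 and also without week 3 alone.

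The genes of the MHC class II pathway had a median of −0.40 over 9 measured (−0.73 without weeks 3 and 9). Cd74, the invariant chain, had a saturated spot on 10 of 12 arrays and H2-Ab1 on 2, so that their differences cannot be read there, and the 7 others were all lower on average, also with a median of −0.40. Leaving out week 15 took it to −0.09, week 18 to −0.24 and week 12 to −0.76. The weekly medians were not of the same sign: 0.11, −0.89, 0.29, 0.83, −1.64 and −1.50 in weeks 3 to 18. H2-Eb1, a chain of the antigen-presenting molecule, ran from −4.55 over −3.17 to −2.03 in HFC and from −5.06 over −3.99 to −2.40 in HF5. It was lower in HF5 in 6 of 6 pairs, by −0.82 ± 0.23, with overlapping ranges. These levels lie below the mean level of the list, which ran from −0.65 to 2.75 in HFC. In weeks 3, 9 and 12 H2-Eb1 was lower while the list median was above 0. H2-Ab1, another chain, differed by −0.54 and was lower in 3 of 6 pairs, those of weeks 6, 15 and 18. Ciita, the master activator of these genes, differed by −0.40 ± 0.60, with 2.37 in week 12 and −3.23 in week 15.

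Lymphocyte genes moved with the week in both directions. The T cell list had a median of −0.56, 1 of 12 higher and 11 lower, and the weekly medians were 1.74, −1.93, 0.73, 1.84, −2.74 and −2.91. The summed level of the 12 T cell genes, relative to the 75th percentile, ran from 1.35 over 22.4 to 43.0 on the HFC arrays and from 2.31 over 5.30 to 112 on the HF5 arrays. The HF5 array of week 3 was the highest and the HFC array of week 9 the lowest. The B cell list had a median of −0.41, 0 of 10 higher and 10 lower, with 3.42 in week 12 and −3.64 in week 15. Genes of lymph node tissue had 3.13 in week 12 and −3.18 in week 15, with Glycam1, a ligand for lymphocytes made by lymph node vessels, at 6.23 in week 12. The lymph node and B cell markers thus moved together from pair to pair, and their part in the T cell and MHC class II values was not tested. The lymph node list had a median of −0.50. Leaving out a week took the T cell median from −1.04 (week 12) to 0.03 (week 15), with −0.97 without week 3, −0.84 without week 9, −0.26 without week 6 and −0.06 without week 18. The B cell median went from −1.19 (week 12) to 0.24 (week 15) and the lymph node median from −1.11 to 0.04 for the same weeks, with −0.13 and −0.20 without week 18. Without weeks 3 and 9 the T cell, B cell and lymph node medians were −1.43, −0.63 and −0.34.

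Genes of cytotoxic lymphocytes had a median of −0.90, 0 of 10 higher and 10 lower on average, and none passed the threshold. Their weekly median was above 0 in week 9 (0.31) and week 12 (0.46). Without weeks 3 and 9 the list median was −1.39, and without week 18 it was −0.58. Gzma, a protease that killer cells release into their targets, ran from −2.67 over −0.14 to 1.96 in HFC and from −2.59 over −1.62 to −0.20 in HF5. It was lower in all pairs but that of week 9, with a mean difference of −1.39 ± 0.41. Ifng, the interferon that activates macrophages, ran from −3.29 over 0.55 to 1.44 in HFC and from −2.55 over −0.76 to 0.17 in HF5. It had the same pattern, lower in 5 of 6 pairs and higher in week 9, with a mean difference of −1.10 ± 0.36.

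Cell cycle genes were lower on average in 11 of 11, with a median of −0.64 (−0.90 without weeks 3 and 9, and −0.40 without week 15). Their weekly medians were lowest in weeks 6, 15 and 18, at −1.39, −1.55 and −1.07, and 0.40 in week 12. The T cell medians were also lowest in weeks 6, 15 and 18, at −1.93, −2.74 and −2.91, and 1.84 in week 12. The part of lymphocytes in the cell cycle values was not tested. Bub1, a kinase of the mitotic checkpoint, ran from −2.10 over −1.41 to 0.32 in HFC and from −3.01 over −2.27 to −1.39 in HF5. Its pairs ran from −1.71 to −0.83, all below 0, with a mean of −1.13 over the early and −0.86 over the late weeks. The other probe of Bub1 gave −0.74 and was lower in 5 of 6 pairs. Mki67, a marker of dividing cells, differed by −0.52 ± 0.30 and was lower in 3 of 6 pairs.

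Structural and vascular genes were low on the HF5 array of week 3. The stromal progenitor list had a median of −0.64, 12 of 12 lower (8 of 8 among those saturated on no array), with −2.27 in week 3, and −0.19 without weeks 3 and 9 (−0.18 without week 3 alone). The collagen list had a median of −0.85, 12 of 12 lower (9 of 9 among those saturated on no array), with −3.29 in week 3, and −0.24 without weeks 3 and 9 (−0.20 without week 3 alone). Of its members, Col6a3 had the lowest mean, −0.91 ± 0.49, but its other probe gave −0.43. Col1a2 had −0.11 ± 0.26, but its spot was saturated on 9 of 12 arrays. The endothelial list went from a median of −0.34 to 0.41 when weeks 3 and 9 were left out, and the list of pericytes and smooth muscle from −0.59 to 0.42. In the other 5 weeks the endothelial medians lay between 0.08 and 0.60. Without week 3 alone they were 0.34 and 0.32, and with another week left out −0.60 to −0.40 and −0.86 to −0.67, so that the sign of these vascular lists rested on that pair. Matrix remodelling genes had a median of −0.41, which became 0.05 without weeks 3 and 9, −0.08 without week 3 and −0.68 without week 18.

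Among stromal genes, Cd248, a surface protein of fibroblasts and pericytes, was the member lower in 6 of 6 pairs. It ran from 3.90 over 4.34 to 5.76 in HFC and from 1.74 over 3.82 to 5.26 in HF5, with the lowest array that of week 3. The mean difference was −0.85 ± 0.29, and −0.58 without weeks 3 and 9. A second probe for Cd248 gave −0.79 and was lower in 5 of 6 pairs. Thy1, a surface marker of mesenchymal cells, was lower in 5 of 6 pairs, all but week 3, with −0.66 ± 0.27.

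Adipocyte genes had a median of −0.26, 3 of 12 higher and 9 lower (1 and 2 among those saturated on no array). Their weekly median was 1.29 in week 6 and below 0 in weeks 3, 12, 15 and 18. The list median was −0.53 without week 6, −0.14 without week 3, −0.15 without week 12, −0.19 without weeks 3 and 9, and −0.02 with normexp. Of the 12 members, 10 were lower in HF5 in week 12, 7 in week 15 and 9 in week 18, and 6 in all 3 of these weeks: Adipoq, Lep, Retn, Cfd, Plin1 and Cidec. Of all 17851 genes, 2285 (12.8%) were lower in all 3. These 6 were picked out after their values were seen, and the week 15 median of the whole list was −0.20. Lep, which encodes the satiety hormone leptin, ran from −5.47 over −2.40 to 2.72 in HFC and from −5.23 over −3.56 to 2.92 in HF5, with the highest level in week 9 for both diets. Its differences were −1.31, −1.46 and −1.80 in weeks 12, 15 and 18, and 1.82 in week 6. Retn, which encodes the adipokine resistin, differed by −1.54, −1.65 and −1.69 in those weeks and by 0.52 in week 6. Adipoq (adiponectin) differed by −1.46, −1.35 and −1.03, and Cfd (adipsin) by −1.04, −1.43 and −1.26. Cidec, a protein of the lipid droplet, had −1.21, −1.18 and −1.22. Cidea, another protein of the lipid droplet, differed by −1.41 in week 12 and 2.55 in week 15. The spot of the fatty acid carrier Fabp4 was saturated on 11 of 12 arrays, so that its differences cannot be read.

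Lipid metabolism lists had medians near 0 over the 6 pairs and varied with the week, with −1.55 for fatty acid uptake in week 3 and 0.96 for cholesterol synthesis in week 6. The medians were −0.12 for lipogenesis, 0.09 for fatty acid uptake and 0.07 for cholesterol synthesis. They were −0.10 for lipolysis and lipid droplets and −0.05 for fatty acid oxidation, which with normexp were 0.11 and 0.03. Leaving out a week took lipogenesis from −0.35 (week 6) to 0.12 (week 12), lipolysis from −0.14 (week 9) to 0.00 (week 12) and fatty acid oxidation from −0.23 (week 18) to 0.12 (week 12). It took fatty acid uptake from −0.10 (week 6) to 0.39 (week 3) and cholesterol synthesis from −0.10 (week 6) to 0.24 (week 3). Srebf1, a transcription factor that drives fatty acid synthesis, was higher in 6 of 6 pairs by the values, but its spot was saturated on both week 9 arrays and the gap in week 12 was 0.00, so that these 2 pairs carry no direction. The list of adipogenic transcription factors had medians of −1.83, −0.05 and −0.18 in weeks 3, 6 and 9, and of 0.16, 0.38 and 0.64 in weeks 12, 15 and 18. Pparg, the receptor that directs adipocyte formation, differed by −2.18 in week 3 and by 0.83 in week 15. The median of that list was −0.14, and leaving out a week gave −0.23 (week 15) to 0.16 (week 3). Brown fat genes had a median of −0.26, from −0.44 without week 18 to 0.16 without week 3. Insulin signalling genes had −0.03, from −0.02 without week 18 to 0.19 without week 3, with 0.07, 0.01 and 0.04 without weeks 6, 12 and 15, and 0.13 with normexp.

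Genes of the antioxidant response held 2 members higher in HF5 in 6 of 6 pairs. Gclc, the rate-limiting enzyme of glutathione synthesis, ran from −0.38 over 0.58 to 0.95 in HFC and from −0.09 over 1.26 to 2.19 in HF5, with a mean difference of 0.69 ± 0.24. Txnrd1, which reduces thioredoxin, ran from 1.89 over 2.63 to 3.02 in HFC and from 2.58 over 3.19 to 3.77 in HF5, with 0.57 ± 0.19. Both have overlapping ranges, and the smallest gaps were 0.07 in week 6 for Gclc and 0.11 in week 9 for Txnrd1. The list as a whole had 7 of 14 higher and 7 lower, with a median of 0.06, or −0.03 with quantile normalization. Leaving out a week gave −0.10 (week 18) to 0.28 (week 3), with −0.09 without week 6, and leaving out weeks 3 and 9 gave 0.29. Slc7a11, the cystine transporter, had the highest mean, 1.31 ± 0.59, but with normexp its mean was −0.60. It was well above background on only 1 HFC and 3 HF5 arrays. In weeks 9, 12 and 18 both its arrays were at the lowest measurable level. Nqo1 and Hmox1, further enzymes of this response, differed by −0.24 ± 0.52 and 0.40 ± 0.51. Genes of xenobiotic metabolism had a median of −0.31, which became −0.06 without weeks 3 and 9, −0.04 without week 3 and −0.47 without week 18.

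Fkbp5, a chaperone of the glucocorticoid receptor that glucocorticoids induce, was higher in HF5 in 6 of 6 pairs. It ran from −0.65 over −0.24 to 0.29 in HFC and from −0.03 over 0.84 to 1.38 in HF5. The ranges overlap only in that the HFC array of week 9 lay above the HF5 array of week 3. The mean difference was 0.97 ± 0.19, a 1.96-fold higher intensity, and the pairs ran from 0.58 to 1.52. The 2 other probes of Fkbp5 gave 0.38 and 0.51, higher in 3 and 5 of 6 pairs. Of the 10 glucocorticoid and metallothionein genes, Fkbp5 among them, 4 were higher on average and 6 lower, with a median of −0.03. In each of weeks 15 and 18, 8 of 10 were higher, with a median of 1.42 in week 18. The list median was 0.22 with normexp and 0.24 without weeks 3 and 9, and leaving out a week gave −0.30 (week 18) to 0.12 (week 3), with 0.05 without week 6 and 0.04 without week 9.

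Other stress lists varied with the week. Immediate early genes, which cells switch on within minutes of a stimulus, had a median of −0.43, 1 of 14 higher and 13 lower (1 and 6 among those saturated on no array), with −1.27 in week 3, −2.45 in week 9 and 0.79 in week 18. The list median was −0.14 without week 9 and 0.10 without weeks 3 and 9. Egr1, a transcription factor of this class, was at 5.29 in HFC and −0.05 in HF5 in week 9, and between 3.34 and 6.42 on every other array. Its spot was saturated on 2 HFC arrays and 1 HF5 array, where its levels are lower limits. Heat shock genes had a median of −0.09, or 0.16 with normexp, and −0.13 without week 9 to 0.01 without week 6. Genes of the unfolded protein response had 0.06, and −0.03 without week 18 to 0.13 without week 6. Clock genes had a median of 0.07, or −0.10 with normexp and −0.07 without weeks 3 and 9, and weekly medians of −0.69 in week 6, 0.76 in week 9, −0.59 in week 12 and 0.59 in week 18. Without week 15 or week 18 the clock median lay just below 0, and without week 6 it was 0.17. The median of the ribosomal protein genes was 0.01, from −0.06 without week 3 or week 12 to 0.18 without week 18, with −0.01 without week 9. That of the respiratory chain genes was −0.02, or 0.15 with normexp, and −0.09 without week 3 to 0.05 without week 12, with 0.04 without week 15. The 4 genes of the Y chromosome in the sex chromosome list had a median of 0.00, 2 higher and 2 lower, from −0.10 without week 3 to 0.15 without week 18.

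Genes of tissues next to the fat pad differed widely in some weeks. Epithelial and mammary genes had 10 of 10 mean differences above 0 and a median of 0.91, which was 1.36 without weeks 3 and 9 and 0.21 with normexp. Krt5, a keratin of basal epithelial cells, ran from −4.60 over −4.09 to −2.37 in HFC and from −4.80 over −0.84 to 3.27 in HF5. It was high on the HF5 arrays of weeks 6, 15 and 18, by differences of 5.24, 7.87 and 7.41, and lower in HF5 in weeks 3 and 12. The HFC level of week 18 was the lowest measurable, so that 7.41 is a lower limit. The summed level of the 12 genes of that list ran from 0.45 over 4.16 to 82.1 in HFC and from 0.40 over 15.2 to 153 in HF5. Epcam, an adhesion protein of epithelia, had a mean difference of 1.69 ± 0.37 and was higher in 6 of 6 pairs, but its week 9 value sets the lowest measurable levels of the 2 arrays against each other, and with normexp the mean was −0.01. The milk protein gene Csn2 was well above background on 0 of 12 arrays.

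Skeletal muscle genes were 3.10 higher in week 9 by their median, and at −3.31 in week 12. Their list median was 0.11, or −0.26 with normexp and −0.57 without weeks 3 and 9. Leaving out a week gave −0.44 (week 9) to 0.77 (week 12), with −0.18 without week 18. Their summed level ran from 3.13 over 53.1 to 564 in HFC and from 21.6 over 42.0 to 454 in HF5. Myh7, a myosin of slow muscle fibres, was at 5.76 in HFC and −2.60 in HF5 in week 12, and at −3.67 and 6.10 in week 18. Mesothelial genes had a median of 3.95 in week 18, and a list median of 0.27, or −0.78 with normexp, −0.22 without that week and 0.61 without week 6. The part of these tissues in the other results was not tested.

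Of the remaining blood cell lists, the erythroid list had 4 of 4 members lower, of which 2 were saturated on some arrays, and a median of −0.94 (−1.26 without weeks 3 and 9). Alas2, the enzyme that starts haem synthesis in red cell precursors, ran from −1.17 over 0.90 to 3.22 in HFC and from −1.44 over 0.36 to 2.08 in HF5. It was lower in HF5 in 6 of 6 pairs, by −1.03 ± 0.28, with overlapping ranges. Hba-a1, a globin, differed by −0.90 ± 0.32 and was lower in 5 of 6 pairs, with its spot saturated on 4 of 12 arrays. Neutrophil genes had 5 of 10 higher and 5 lower and a median of 0.07, or −0.57 with normexp, and −0.17 without week 3, −0.15 without week 12 and 0.36 without week 15. Cxcr2, the chemokine receptor of neutrophils, was higher in 6 of 6 pairs by the values, with a mean difference of 0.77 ± 0.30. In weeks 6 and 9 both its arrays were at the lowest measurable level, so that these pairs carry no direction. Cxcr2 was well above background on 4 arrays per diet, and with normexp its mean was −0.45. Mast cell genes had a median of −0.09, from −0.29 without week 3 to 0.02 without week 6. The median was −0.42 without weeks 3 and 9 and −0.48 with normexp, and the protease Cpa3 was lowest at −0.85 ± 0.35.

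Among genes well above background on all 12 arrays, the 12 in each direction with the widest smallest gap over the 6 pairs were also named, whether in a list or not. The higher ones were Cflar, Chil3, Chka, Fkbp5, Gm6402, Gtf2a1, Mfsd6l, Neu1, Orc2, Rrp12, Tfe3 and Zfp827. Neu1, a lysosomal sialidase, ran from 2.70 over 3.38 to 3.55 in HFC and from 2.95 over 3.98 to 4.96 in HF5, with a mean difference of 0.72 ± 0.23. Its other probe gave 0.62, higher in 5 of 6 pairs. Chka, a kinase of phosphatidylcholine synthesis, ran from −1.96 over −1.11 to −0.09 in HFC and from −1.67 over −0.20 to 0.36 in HF5. Its mean difference was 0.64 ± 0.21, and its 2 other probes gave 0.51 and 0.66, each higher in 6 of 6 pairs. Zfp827, a zinc finger protein, ran from −0.87 over −0.75 to −0.19 in HFC and from −0.40 over 0.00 to 0.86 in HF5, with 0.67 ± 0.17. For Cflar, an inhibitor of cell death through caspase-8, the probe described gave 0.49 ± 0.17 while 3 others gave −0.07, 0.08 and 0.09. Other probes also differed from the one described for Gtf2a1 (−0.35 and 0.02 beside 0.38), Tfe3 (−0.02 beside 0.74) and Orc2 (0.15 beside 1.09). Gm6402 differed by 1.12 ± 0.30, and by −0.27 with normexp.

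The lower ones were 1700012I11Rik, 1700071K01Rik, Bub1, Cacna1b, Col2a1, Cyren, Dact2, Gm4862, Gm5854, Gm6746, Krtap10-10 and Padi1. The gene 1700071K01Rik, of unknown function, had a gap that varied little between pairs. It ran from −1.91 over −0.79 to −0.20 in HFC and from −3.13 over −2.11 to −1.72 in HF5, and its pairs ran from −1.56 to −1.05. The mean difference was −1.32 ± 0.16, with a limma adjusted p of 0.976. Nearly all HFC levels lie above the HF5 levels, with an overlap between −1.91 and −1.72. Col2a1, a collagen of cartilage, ran from 0.52 over 2.54 to 2.89 in HFC and from −2.36 over 0.17 to 0.93 in HF5. It was lower in every week, by −5.26 in week 3 and by −1.14 in week 15, with a mean difference of −2.38 ± 0.51, but its other probe gave −0.47. Dact2, an inhibitor of signalling by the TGF-β family, ran from 0.58 over 1.27 to 2.08 in HFC and from −1.92 over 0.09 to 0.62 in HF5. Its mean difference was −1.42 ± 0.30, and its other probe gave −0.79, also lower in 6 of 6 pairs. Cacna1b, a subunit of a neuronal calcium channel, ran from 1.43 over 1.76 to 3.23 in HFC and from 0.51 over 1.13 to 2.67 in HF5, with −0.67 ± 0.16. Padi1, an enzyme that converts arginine to citrulline in proteins, differed by −0.95 ± 0.19, and the remaining 6 apart from Bub1 by −1.52 to −0.89. Among these Cyren had −0.91, while its other probe gave −0.16.

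The largest differences within a week changed from week to week. Myh7 was among the lowest in week 12 and the highest in week 18. The genes named were above the lowest measurable level on both arrays of the pair. In week 3 the largest higher ones were Gm16386, Acod1 and Fpr1. Acod1, which makes the antibacterial metabolite itaconate in activated macrophages, was at −0.76 in HFC and 5.43 in HF5, and Fpr1, a receptor for bacterial peptides on neutrophils, at −3.66 and 1.86. The largest lower ones that week were the smooth muscle and cardiac genes Cnn1, Actc1 and Myh11, with differences of −8.06, −7.10 and −6.51. In week 6 they were Lcn9, Rnase10 and Fxyd4, higher by 8.61, 7.73 and 7.71, and Serpina3h, Svs4 and Hba-ps4, with −4.87, −4.19 and −3.82. Hba-ps4, a globin pseudogene, was lower in all 6 pairs, with a mean of −2.10 ± 0.39. In week 9 they included Gchfr, Rarres1 and the muscle gene Tnnt3 on the higher side, and Syce2 and Egr1 on the lower side. In week 12 Glycam1, Smim24 and Fut7, an enzyme that makes selectin ligands, were highest, and the heart and slow muscle genes Myh7, Myh6 and Myl2 lowest, with −8.35, −6.51 and −5.80. In week 15 the keratins Krt10 and Krt5 and Ccdc153 were highest, with 9.11, 7.87 and 7.45, and Apol7c, Vpreb3 and Pnoc lowest. Krt15 had 8.59 that week, but its HFC level was the lowest measurable. In week 18 Myh7, Fam25c and Calm4 were highest, with 9.76, 6.10 and 6.06, and Gm6883, Creb3l3 and Sdc3 lowest, with −6.82, −5.80 and −5.75. Krt5, Myl2, Pnoc, Krt10 and Krt15 had 6.79 to 7.41 that week, but their HFC levels were the lowest measurable. These are differences between 2 arrays, with no replicate check.

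The design also asks whether the difference changes with time on the diet. In weeks 12, 15 and 18, whose pairs share a slide, limma called 0 of 29068 probes, with 935 at an unadjusted p under 0.05. That count was 3420 without week 12 and 404 without week 15. The test of late weeks (12, 15 and 18) against early weeks (3, 6 and 9) called 0 probes, with a lowest adjusted p of 0.619 and 1565 probes at an unadjusted p under 0.05, or 2816 without week 12. Early and late cannot be told apart from whether a pair shares a slide. Genes above the lowest measurable level on all late arrays were ranked by the smallest gap over the 3 late pairs. The higher ones were Cnfn, Nutm2, Sox3, Dlx6 and Car4, and the lower ones Gm11546, Lep, Plaat3, Retn and Scg5. Elovl3 had 1.19, 2.89 and 2.33 in these weeks, but its HFC levels were the lowest measurable. Plaat3, a phospholipase abundant in adipocytes, ran from 0.85 over 2.66 to 5.38 in HFC and from −1.40 over 1.39 to 5.57 in HF5. Its late differences were −1.36, −1.58 and −3.08. Scg5, a secretory granule protein, differed by −1.38, −1.57 and −1.22 in the late weeks and by 1.99, 1.55 and 1.22 in the early ones. Car4, a carbonic anhydrase of capillary walls, was higher by 1.12, 1.82 and 1.48 in the late weeks and at −1.86 in week 3. Cnfn, Sox3 and Dlx6 had means above 0 over the 6 pairs (1.19, 1.27 and 1.65) that with normexp were −0.02, −0.12 and −0.15.

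The doses of 20 µg (HF20) and 75 µg (HF75) were compared with the same HFC arrays, so the 3 comparisons share their controls and only their values are set side by side, over weeks 3 to 15. In the order HF5, HF20, HF75, the macrophage median was −0.42, −0.57 and −0.96, and Adgre1 had −0.41, −0.39 and −0.97. The collagen median was −0.99, −0.53 and −1.38. The HF5 values include the week 3 array that stands apart, with a collagen median of −3.29 in that pair. Values without week 3 were not computed for the doses. Fkbp5 had 0.86, −0.01 and 0.80, and Chil3 1.06, −0.98 and 1.11. Gclc had 0.68, −0.10 and 0.34, and Txnrd1 0.54, −0.03 and 0.14. The adipocyte median was −0.19, 1.62 and 0.11. Unlike the HF5 arrays, the HF20 array of week 3 and the HF75 arrays of weeks 3, 6 and 9 were scanned on other days than their HFC arrays. Differences between the doses were not tested.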

How the data were processed

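Per the file headers, the deposited intensities come from Feature Extraction 10.5.1.1 (9.1 in the submitters' notes), with background subtracted and no normalization across arrays. A table of log2 fold changes against low-fat arrays, supplied by the authors, was not used. From each log2 intensity the array's 75th percentile was subtracted. A probe the software did not mark as well above background was set to the lowest marked level of that array if below it. Of 40628 probes, 40457 had a value on all 12 arrays (132 probes were dropped for an outlier spot), and 29068 were tested, those marked on 50% or more of the arrays in 1 diet or both. Of the probes, 28136 were named by accession, 4982 by symbol and 1406 by synonym from a RefSeq gene table, and 6104 keep the file's name.

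limma 3.58.1 in R 4.3.3 fitted diet with week as a block, two-sided, called at a Benjamini-Hochberg adjusted p under 0.05. The week pairs the arrays: their deviations from the diet means correlated with r = 0.231 to 0.887 in the 6 weeks, and 4 of 6 correlated best with their own week. Other steps used Python 3.11.15, NumPy 2.4.6, pandas 2.3.3 and Matplotlib 3.10.9, and the fit was tested on simulated data. The named genes were the 12 per direction with the widest smallest pair gap, and the extremes of each list. Also named were list members with the same sign in all 6 pairs. The 3 largest per direction and week and the 5 per direction over the late weeks were added. For these choices by week, genes at the lowest measurable level on an array compared were left out. Genes past the threshold would have been named, but there were none. Where the text gives further list members, they were chosen after their values were seen. The members and lists were chosen with earlier results of these data known. Alternatives were normexp with an offset of 50, quantile normalization, other floors and filters, no block, a random block, the slide as block, an intensity trend, all high-fat arrays, a t-test, and leaving out weeks. A floor shared by both arrays of a week, and list medians over members saturated on no array, were added after the data were seen. Week 18 was not used for HF20 and HF75, whose labels conflict there. The median ratio of spot signal to background was 3.60 to 7.23, and the number of arrays limits the precision.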

Additional observations from a re-analysis of the deposited data

Results flagged for a closer look

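For each list of genes, the level on the 6 arrays of a diet and the median difference of the 6 weeks were searched for a value far from the other 5. Of 137 groups of 6 values, 25 had a value that stood apart, while chance marks about 1 in 20. No reason for these values was tested.

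On the HF5 array of week 3, the endothelial genes (level −1.62), the genes of pericytes and smooth muscle (−1.84), the collagen genes (0.28) and the complement genes (0.41) lay below the other HF5 arrays. The difference of week 3 stood apart for the endothelial (−4.16), pericyte and smooth muscle (−5.20), collagen (−3.29), stromal progenitor (−2.27), adipogenic transcription factor (−1.83), fatty acid uptake (−1.55) and lipid-associated macrophage (−1.42) genes, all below the other weeks. For the sex chromosome genes it lay above them, at 0.88.

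In week 9 the arrays of both diets stood apart for the inflammatory cytokine genes, low at −3.32 in HFC and −4.39 in HF5, for lipogenesis, high at 3.15 and 3.24, and for the respiratory chain, high at 4.38 and 4.54. The HFC array of week 9 stood apart for fatty acid oxidation (3.00) and, on the low side, for immediate early genes (2.56). The HF5 array of week 9 stood apart for adipocyte genes (5.09) and for lipolysis and lipid droplets (4.64).

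The HFC array of week 6 was high for macrophage genes (3.17) and for mesothelial genes (0.79), and the HFC array of week 18 was low for collagen genes (2.40).

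The median of the adipogenic transcription factors was below 0 in each early week and above 0 in each late week, and late minus early came to 1.08, or 0.51 without week 3. This difference was not tested.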

How the results depend on the processing

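Under every setting tried, limma called 0 probes across weeks, in weeks 12 to 18 and for late against early weeks, as did the methods' t-test across weeks. In the comparison across weeks without the pairing (no block for the week), 0 probes were called and 296 had an unadjusted p under 0.05, beside 1351 with it; all high-fat arrays in 1 fit gave 692, the methods' t-test 380, normexp 8269, and leaving out each week in turn 975 to 2029. With normexp 282 of the probes under that threshold were higher and 7987 lower, beside 627 and 724. In weeks 12 to 18, normexp gave 1604 beside 935, and leaving out a week 404 to 3420; for late against early weeks, leaving out a week gave 1056 to 2816 beside 1565.

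Genes lower in all 6 pairs numbered 1305 with normexp, beside 282, and genes higher in all 6 360, beside 328. The 2-fold shares in weeks 3, 6, 9, 12, 15 and 18 were 33.9%, 19.4%, 6.55%, 14.8%, 14.5% and 21.7% with quantile normalization, and 55.2%, 9.08%, 40.5%, 28.1%, 7.54% and 10.0% with normexp. Among probes well above background on both arrays they were 30.6%, 5.55%, 12.3% and 12.9% in weeks 3, 9, 12 and 15. With a floor shared by both arrays, chosen after the data were seen, they were 28.7%, 5.70% and 16.9% in weeks 3, 9 and 18.

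With normexp the median of all genes was −0.19, of neutrophil genes −0.57 and of heat shock genes 0.16. Under all other settings each list median stayed within 1 SD of its weekly medians. That SD includes the weeks left out, so leaving out weeks could hardly move a median beyond it. The endothelial median went from −0.34 to 0.41 without weeks 3 and 9, within its SD of 1.84. Per setting, 0 to 15 of 42 list medians and 0 to 29 of 156 named genes changed sign, most without weeks 3 and 9 or with normexp. The cause was not tested. Signals near background, with a median ratio of 3.60 to 7.23 over the arrays, limit the dim genes: 2 values at the floor have no order.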
